A study of Mus musculus with 360 samples.

Results

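The insulin-like growth factor (IGF) system was described in single skeletal stem and progenitor cells of the newborn mouse through 10 of the 24015 genes in the count tables. The members were taken by name: the ligands Igf1 and Igf2, the receptors Igf1r and Igf2r, and the binding proteins Igfbp2, Igfbp3, Igfbp4, Igfbp5, Igfbp6 and Igfbp7. All 10 were listed and had reads. The cells came from wild type CD-1 mice at postnatal day 3 and had been sorted for CD51 and CD200 after removal of blood, endothelial and other lineage cells. The tissues were 3 sutures (PF, posterior frontal; COR, coronal; SAG, sagittal), the fibrous joints between skull bones, and the growth plate (GP) of the tibia, the cartilage from which that bone lengthens. All groups share strain, age, genotype and sort, and no cell received a treatment. Full-length RNA-seq libraries were made cell by cell on 2 plates for each tissue, from tissue of pooled animals, and no animal was named for a cell. Each tissue was therefore 1 sample, no test was possible between tissues, and the 2 plates gave the only spread.

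IGF1 and IGF2 are secreted growth factors of fetal and early postnatal tissue that act mainly through the tyrosine kinase receptor encoded by Igf1r. The receptor encoded by Igf2r takes up IGF2 and carries it to lysosomes. The binding proteins are secreted, hold the ligands outside the cell with high affinity and can limit or prolong their action; IGFBP7 is the family member with low affinity for IGF. In bone, IGFs are stored in the matrix, IGFBP4 and IGFBP5 are products of bone-lineage cells, and growth plate cartilage is a classic target of IGF1.

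Of the 360 cells, 325 passed a minimum of 10000 reads and 500 detected genes, namely 78 GP cells, 74 COR cells, 86 SAG cells and 87 PF cells. Levels (CPM) are reads summed over the cells of a tissue or plate and scaled to a total of 1000000, with the ribosomal RNA gene Rn45s left out of the total, which then ran from 17212041 reads in SAG to 32037308 in COR. SAG plate 2 stood apart from the other plates. Rn45s took 86.8% of its reads against 20.2 to 31% elsewhere, its cells had a median of 875 genes, and 80.1% of 9555 genes differed at least 2-fold between the SAG plates, against 32.7 to 42.5% between the plates of another tissue. Results that involve SAG are given with and without this plate. For 1 SAG cell the description named a PF plate. Blood, endothelial and skeletal muscle lists were near 0 on every plate. Reads of Itgav, which encodes CD51, were found in 18.6 to 60.8% of cells per tissue and reads of Cd200 in 33.7 to 55.4%. The sort was on surface protein, so a cell without an RNA read may still have met it. Cartilage genes were strong in SAG, at 23248 and 23794 CPM for the summed list of 10 genes on the 2 plates, and tendon genes were strong in GP, at 11919 and 7527 CPM for 5 genes against 1318 to 4621 CPM on the suture plates, where 4 or 5 of the 5 had reads (Thbs4 was at 0 on 4 plates and Scx on SAG plate 2).

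The promoters of 4 binding proteins are shown because the results turn on these genes: Igfbp3 and Igfbp6 were both highest in GP and near 0 in SAG, and Igfbp2 and Igfbp5, which lie 5.457 kb apart on chromosome 1 and are read towards each other, had different patterns. RefSeq promoter windows, 250 bases before to 50 after a gene start, were found for all 10 members, and each window matched a single place of the mm9 chromosome. Capitals mark the letters of the RUNX core, TGTGGT, those of the GC box, GGGCGG, and those of the TATA box, TATAAA, searched on both strands, with no overlap among the matches. The windows are written 5′ to 3′ on the strand of the gene, in mm9: Igfbp3 at chr11:7113877-7114176 (minus), Igfbp6 at chr15:101974367-101974666 (plus), Igfbp2 at chr1:72870804-72871103 (plus) and Igfbp5 at chr1:72921390-72921689 (minus).
Igfbp3: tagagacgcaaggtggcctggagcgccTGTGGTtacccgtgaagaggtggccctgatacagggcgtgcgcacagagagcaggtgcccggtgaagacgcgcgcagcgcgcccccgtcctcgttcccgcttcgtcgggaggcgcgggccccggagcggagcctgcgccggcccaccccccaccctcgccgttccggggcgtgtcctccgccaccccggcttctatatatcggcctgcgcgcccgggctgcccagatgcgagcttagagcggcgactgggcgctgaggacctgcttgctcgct
Igfbp6: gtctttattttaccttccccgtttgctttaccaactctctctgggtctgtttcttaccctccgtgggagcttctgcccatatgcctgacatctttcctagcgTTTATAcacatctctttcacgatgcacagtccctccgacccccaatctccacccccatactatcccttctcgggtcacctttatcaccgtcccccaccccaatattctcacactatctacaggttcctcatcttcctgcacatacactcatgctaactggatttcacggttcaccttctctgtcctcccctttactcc
Igfbp2: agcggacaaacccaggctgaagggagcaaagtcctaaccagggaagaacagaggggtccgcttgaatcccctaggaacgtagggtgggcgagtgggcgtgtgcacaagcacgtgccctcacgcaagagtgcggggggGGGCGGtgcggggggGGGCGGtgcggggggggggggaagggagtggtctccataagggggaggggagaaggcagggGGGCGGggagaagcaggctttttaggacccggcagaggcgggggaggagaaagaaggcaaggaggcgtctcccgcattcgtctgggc
Igfbp5: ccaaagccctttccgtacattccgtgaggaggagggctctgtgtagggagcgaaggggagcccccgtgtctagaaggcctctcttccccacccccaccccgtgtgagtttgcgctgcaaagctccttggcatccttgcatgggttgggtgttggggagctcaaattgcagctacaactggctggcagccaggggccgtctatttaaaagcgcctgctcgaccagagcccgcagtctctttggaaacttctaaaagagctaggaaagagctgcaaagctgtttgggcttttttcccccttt

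The 4 windows differed in make-up. The Igfbp3 window held 37 CpG dinucleotides and 71.7% G and C, the Igfbp6 window 8 and 49.7%, and the median over 32851 RefSeq windows was 7 CpG. Igfbp3 held 1 RUNX core match, Igfbp6 held 1 TATA box match on the opposite strand, Igfbp2 held 3 GC box matches and Igfbp5 held none of these letters. Of all windows, 16.8% held a RUNX core, 13.6% a TATA box and 35.7% a GC box, so a single match is common. A second RefSeq window of Igfbp2, at chr1:72871711-72872010, held 0 matches.

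The ligands were among the abundant genes of these cells. Igf2, the fetal growth factor expressed from the paternal allele, reached 960 and 7724 CPM on the 2 SAG plates, against 814 and 1247 in PF, 314 and 800 in COR and 1156 and 908 in GP. SAG plate 2 thus stood alone, and SAG plate 1 fell within the range of the other tissues. This gap depended on leaving out Rn45s. With Rn45s counted in the totals, SAG plate 2 stood at 1023 CPM, against 251 to 925 CPM on the other plates. The log2 ratio of SAG over COR was 2.74, with plate pairs from 0.26 to 4.61. On SAG plate 2 Igf2 ranked as gene 13 by CPM, against ranks 49 to 384 on the other plates, and its median cell held 6273 CPM against 267 to 1199 on those plates. The high value was therefore spread over the cells of that plate, the strongest of which gave 8.77% of its reads. Igf2 reads were present in 88.6% of PF, 91.5% of COR and 88.1% of GP cells after every cell was thinned to 100000 reads other than Rn45s, and in 25 of 25 and 54 of 55 cells of the SAG plates. The microRNA gene Mir483 lies within Igf2 on the same strand, so reads there belong to either, and reads of the overlapping antisense gene Igf2as cannot be told apart because the use of strand in counting was not stated.

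Igf1, the ligand driven in many tissues by growth hormone, was found in fewer cells. It stood at 2351 and 714 CPM in GP, 628 and 1186 in PF, 652 and 1112 in COR and 546 and 729 in SAG. The plates of each tissue overlapped those of every other, and GP plate 1 was highest. Reads were present in 61.2% of GP, 45.7% of PF, 40% of SAG and 28.2% of COR thinned cells, and on the SAG plates in 15 of 25 and 17 of 55 cells. SAG plate 1 alone was thus close to GP. The shares had exact 95% binomial intervals of 18.1 to 40.1% for COR and 48.5 to 72.9% for GP that cover counting error only. COR thus had the fewest cells with Igf1 but a level like that of PF, and 23.6% of its Igf1 reads came from a single cell. Per kilobase of exon, Igf2 made up 66.1% of ligand reads in PF, 56% in COR and 63.2% in GP, against 76.1 and 95% on SAG plates 1 and 2. On COR plate 1 and GP plate 1 its share was 46.6 and 47%, so the order of the ligands depended on the plate.

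The receptors were weaker. Igf1r, the signalling receptor, measured 40.9 and 15.9 CPM in GP, 9.57 and 34.7 in COR, 15 and 16 in PF and 16.9 and 2.03 in SAG. Its plates overlapped between all tissues except that SAG plate 2 was lowest, where 1 cell held all 21 reads, and on GP plate 1 a single cell gave 78.2% of the reads. Reads of Igf1r were seen in 18.6% of PF, 28.2% of COR, 14.9% of GP and 10% of SAG thinned cells, or 28% on SAG plate 1. Igf2r, which clears IGF2, was found more widely, in 52.9% of PF, 76.1% of COR and 71.6% of GP cells and in 18 of 25 cells of SAG plate 1, but in 10 of 55 cells of SAG plate 2. Its level was 93.8 and 246 CPM in SAG, 119 and 88.9 in GP, 142 and 109 in COR and 65.3 and 62.4 in PF. Both PF plates lay below all others, and the log2 ratio of PF over SAG was -1.54, which did not meet the 2-fold criterion for tissue comparisons without SAG plate 2. The antisense gene Airn overlaps Igf2r and was counted too, and the exon length used for Igf1r, 4476 bases, covers only the exons in the annotation used here, which bears on its value per kilobase.

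**Figure D1:**
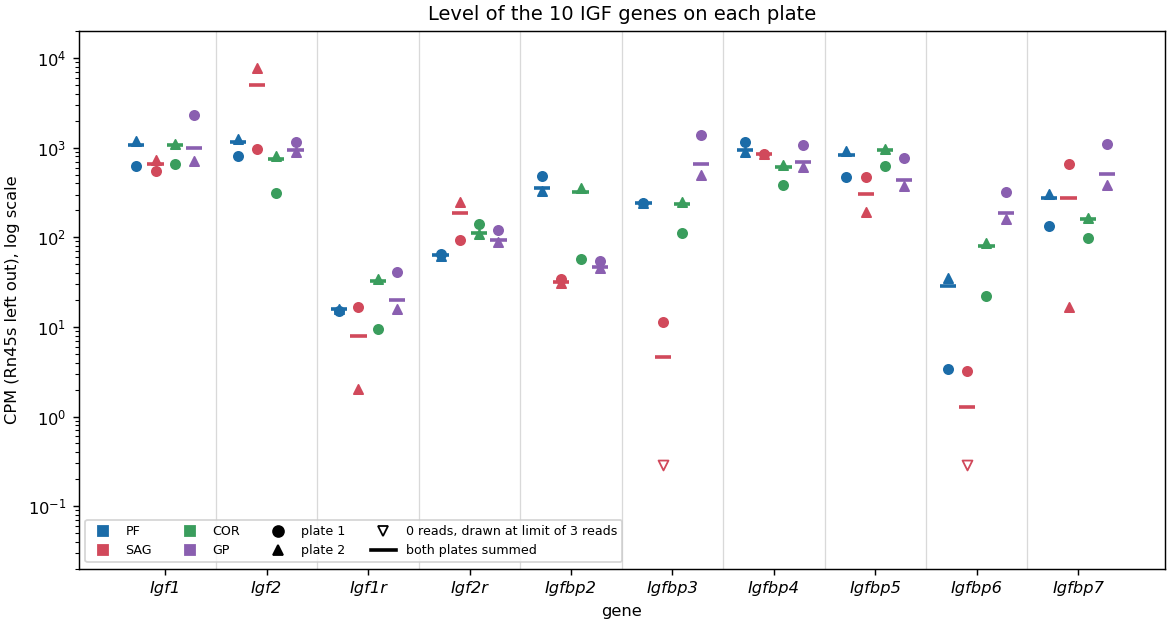
Level of each IGF gene in CPM with Rn45s left out (log axis), circles for plate 1 and triangles for plate 2, bars for both plates summed; open triangles mark 0 reads and stand at the limit that 3 reads would give. Igfbp3 and Igfbp6 are lowest in SAG and highest in GP on both plates, except that the SAG and PF plate 1 values of Igfbp6 nearly meet, and Igf2 and Igfbp7 of SAG plate 2 lie far from SAG plate 1.

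Most differences between tissues lay in the binding proteins. A gene was counted as different between 2 tissues where the summed levels differed at least 2-fold and every plate of one tissue lay on the same side of every plate of the other. PF and COR differed in 0 of the 10 genes, beside 11.8% of the 9514 genes with at least 10 CPM in PF or COR. PF and GP differed in 3 genes (16.4% of all genes), COR and GP in 4 (13.4%), PF and SAG in 5 (30.1%), SAG and COR in 5 (32.4%) and SAG and GP in 2 (31.6%). Without SAG plate 2 the last 3 counts were 4 (33.3%), 4 (31.9%) and 2 (34%). The comparisons share tissues and are not independent. The 3 and 4 in 10 for PF and COR with GP stood above the background. So did the 5 in 10 for PF or COR with SAG, but the 4 in 10 without SAG plate 2 was near it. The 2 in 10 for SAG with GP lay below it. With only 10 genes such gaps amount to a few genes, and they were not tested.

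Igfbp3, the main IGF carrier of serum, was highest in GP. It measured 1389 and 497 CPM on the GP plates, 112 and 247 in COR, 242 and 240 in PF, and 11.5 and 0 in SAG, where 0 reads on plate 2 allow up to 0.29 CPM. Every GP plate lay above every suture plate, and every SAG plate lay below every other plate. The log2 ratio was -1.44 for PF over GP (plate pairs -2.53 to -1.04), -1.48 for COR over GP and 4.27 for PF over SAG with SAG plate 1 alone. On COR plate 1 a single cell held all its reads, on GP plate 1 a single cell gave 47.5% (808 CPM without it) and on PF plate 1 44.5% (143 CPM without it). With the mean over cells the ratio of PF over GP was -0.74, below 2-fold. Cells with a read were 40.3% in GP, 28.6% in PF, 21.1% in COR and 3.75% in SAG, all on plate 1 (3 of 25 cells, 12%).

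Igfbp6, a binding protein with preference for IGF2, had the same order of extremes. It measured 319 and 160 CPM in GP, 22.2 and 85.6 in COR, 3.38 and 35.1 in PF, and 3.20 and 0 in SAG. All plate pairs placed GP above each suture, at a log2 ratio of -2.65 for PF over GP and -1.23 for COR over GP. Reads were present in 49.3% of GP thinned cells, 19.7% of COR, 8.57% of PF and 1.25% of SAG, which is 1 cell that held all 22 SAG reads. Between SAG plate 1 and PF plate 1 the difference was only 0.06 on the log2 scale, so the order of SAG and PF rests on PF plate 2.

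Igfbp2, a binding protein of fetal tissue, had another pattern and was high in PF. It measured 482 and 326 CPM in PF, 54.2 and 45.3 in GP and 34 and 30.6 in SAG, with PF plates above all plates of those tissues. The log2 ratio was 2.90 over GP and 3.44 over SAG, or 3.35 over SAG plate 1. COR was split, at 57.1 CPM on plate 1 and 353 on plate 2, and a single cell gave 41.4% of the COR reads. COR over GP still met the criterion, at 2.76, with plate pairs from 0.07 to 2.94. With the mean over cells that difference no longer met it. A single cell gave 96.2% of the reads on COR plate 1, 91.5 and 90.2% on the SAG plates and 82.5% on GP plate 1. On PF plate 1 it gave 54.8%, and the level without it was 228 CPM, still above the GP and SAG plates. Reads were present in 41.4% of PF, 21.1% of COR, 6.25% of SAG (2 of 25 cells on plate 1) and 16.4% of GP cells, so PF led by share. By level PF led GP and SAG but not COR, at 356 against 323 CPM with plate pairs from -0.12 to 3.05.

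Igfbp7, the low-affinity member, measured 657 and 16.6 CPM in SAG, 1110 and 387 in GP, 133 and 307 in PF and 97.9 and 166 in COR. GP lay above COR on all plates (log2 ratio of COR over GP -1.68). SAG plate 1 lay above PF and COR, with log2 ratios of -1.26 for PF over SAG and 2.04 for SAG over COR without SAG plate 2, whereas on SAG plate 2 a single cell gave 94.8% of the reads. The share of cells was 84% on SAG plate 1, 71.6% in GP, 57.1% in PF, 50.7% in COR and 5.45% on SAG plate 2. The gene overlaps Polr2b on the opposite strand.

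Igfbp4 and Igfbp5, the binding proteins best known from bone-lineage cells, were widely found. Igfbp4 was present in 64.8 to 77.6% of cells of every tissue and measured 381 to 1163 CPM over all 8 plates, with SAG plates at 847 and 848 despite their other differences, and it met the criterion in 0 of the 6 comparisons. Igfbp5 measured 472 and 193 CPM in SAG, 761 and 375 in GP, 620 and 979 in COR and 476 and 921 in PF. Its SAG level lay below PF (log2 ratio 1.45) and COR (-1.63 for SAG over COR), but the gap between SAG plate 1 and PF plate 1 was 0.01 on the log2 scale and a single cell gave 61.8% of the reads on SAG plate 1. Neither comparison met the criterion without SAG plate 2.

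Without thinning the shares kept their pattern. Igfbp6 reads were then seen in 47.4% of GP, 18.9% of COR and 9.2% of PF cells, Igfbp2 in 43.7% of PF and 15.4% of GP cells, and Igf1 in 56.4% of GP and 29.7% of COR cells. For Igf2r the change was largest, to 67.8% of PF and 89.2% of COR cells.

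**Figure D2:**
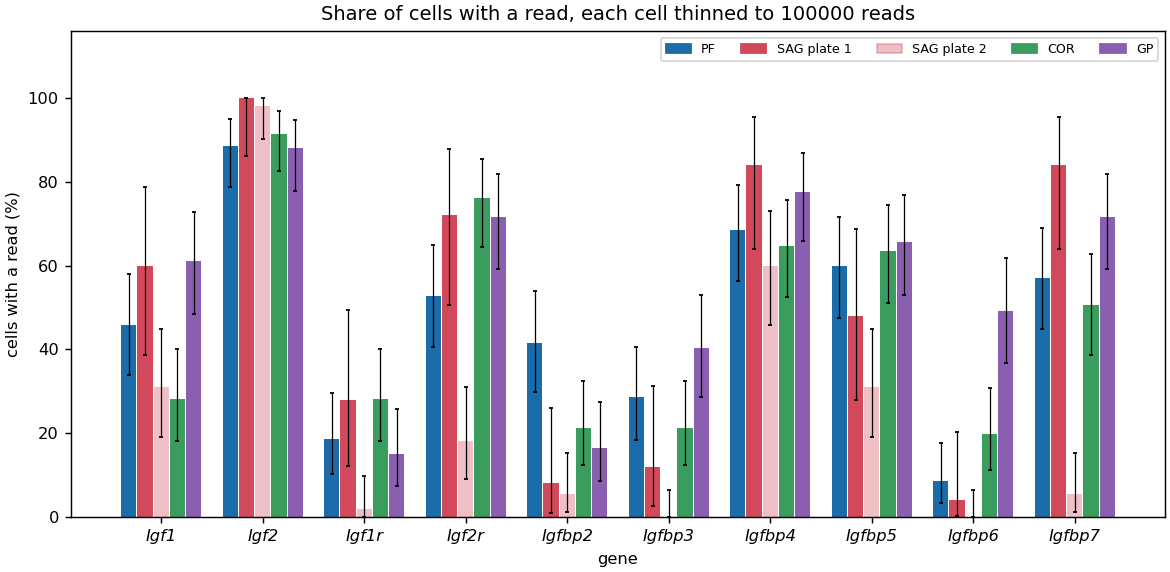
Percent of cells with a read of each gene after thinning every cell to 100000 reads other than Rn45s; bars are tissues, with the SAG plates apart, and error bars are exact 95% binomial intervals, which cover counting error only. Igf2 is near 90% or above in every bar, Igfbp2 peaks in PF and Igfbp3 and Igfbp6 in GP, and Igfbp7, Igf1r and Igf2r differ widely between the SAG plates.

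Summed per kilobase of exon, the 6 binding proteins exceeded the 2 ligands by 4.35 times in GP, 3.56 in COR and 3.32 in PF, and by 4.37 on SAG plate 1, but stood at 0.285 of them on SAG plate 2. These ratios depend on the annotated exon lengths, 9.921 kb for Igf1 and 5.493 kb for Igf2. Those of the binding proteins ran from 1.112 to 6.006 kb. Igfbp4 gave the largest part in PF (37.8%) and COR (29.9%), and Igfbp7 in GP (35.5%) and on SAG plate 1 (54%). Counted cell by cell, Igfbp4 was the leading binding protein per kilobase in 42.9% of PF, 38% of COR and 29.9% of GP cells, and Igfbp7 in 31.3% of GP cells and 12 of 25 cells of SAG plate 1. Igfbp3 led in 11 of 67 GP cells and in 1 of 71 COR cells, and in 0 of 70 PF cells, which allows up to 4.29%. Igfbp5 led in 17.1% of PF and 22.5% of COR cells but in 2.99% of GP cells. Igfbp2 led in 10% of PF and 7.04% of COR cells and in 0 of 67 GP cells, which allows up to 4.48%. GP cells more often held many binding proteins: 47.8% had reads of 4 or more of the 6, against 31.4% in PF, 28.2% in COR and 12% on SAG plate 1. The tendon gene list, given above, was also higher in GP on both plates, and its part in these results was not tested.

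**Figure D3:**
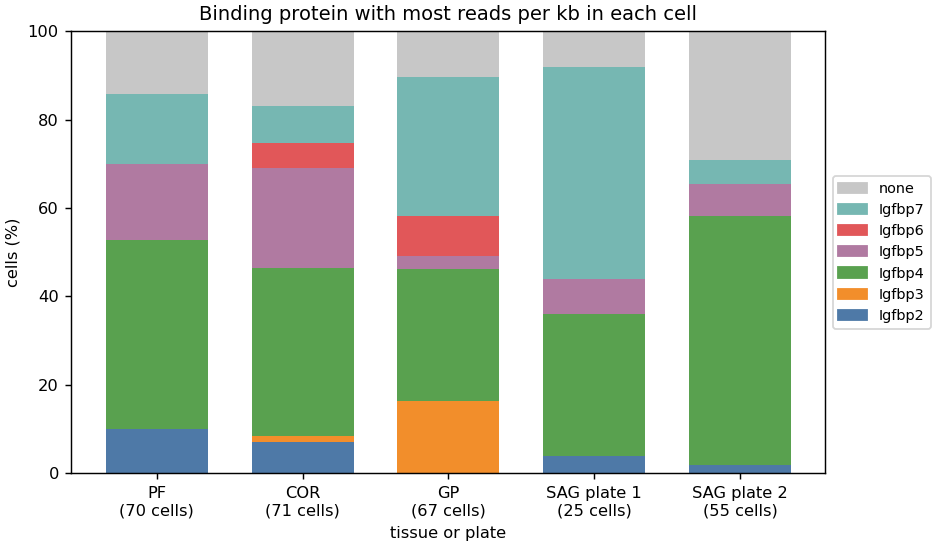
Percent of thinned cells in which each binding protein had most reads per kilobase of exon (stacked bars), with grey for cells without a read of any. Igfbp4 leads in PF, COR and SAG plate 2 and Igfbp7 in GP and SAG plate 1; Igfbp3 leads mostly in GP, and Igfbp5 mostly in PF and COR.

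Which cells held which genes was then read from 233 thinned cells of PF, COR, GP and SAG plate 1, by setting cells with a read of 1 marker against all others. Shares and counts of cells use the thinned reads, and CPM use all reads of the same cells. Markers and IGF genes come from the same cells, so the differences below are descriptions. Cells with Ibsp, a bone matrix gene of osteoblasts, held less of the system. Of the 10 genes, 8 were at least 2-fold lower in the 54 Ibsp cells, against 28% of 9391 genes, and the median gene was itself lower by 0.48 on the log2 scale. Set relative to that median, 7 genes remained, and 7 were lower in cells chosen by Ifitm5, another gene of the osteoblast list. The 8 genes included Igfbp4 and Igf2r, which were near even in GP, at 679 against 702 CPM and 87 against 97.7 CPM. Igf2 was among the 7 genes lower in cells chosen by Ifitm5, and Igf2r was not. By share of cells the result for both depended on the marker. Cells with Igf2 had Ibsp less often than those without (21.3 against 40.9%), but Sp7 (40.8 against 31.8%) and Bglap (24.2 against 22.7%) more often. For Igf2r, Sp7 (39.5 against 40.8%) and Bglap (23.6 against 25%), both on that list, were near even.

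Igf1 was among the genes with the widest gap. It stood at 87.7 CPM in Ibsp cells and 1322 CPM in the rest, and reads were present in 4 of 54 cells (7.41%) against 58.1% of the others. In PF 0 of 22 Ibsp cells had an Igf1 read after thinning, which allows up to 13.6%, against 32 of 48 others. Over all reads these Ibsp cells held 0.0974 CPM of Igf1. The counts were 1 of 17 against 19 of 54 in COR, and 3 of 12 against 38 of 55 in GP, so the direction was the same in each tissue. Igfbp6, at 1.86 against 119 CPM, Igfbp3, at 18.7 against 438, Igfbp2, at 13 against 304, and Igfbp7, at 47.1 against 428, were lower in Ibsp cells of all 3 tissues. Over all tissues Igf1r (22 against 21 CPM) and Igfbp5 (495 against 800 CPM) were within 2-fold, but the tissues differed. Igf1r was lower in Ibsp cells of GP, at 3.15 against 23 CPM. It was higher in those of PF (20.6 against 12.7 CPM) and COR (38.6 against 27.8 CPM). Igfbp5 was even between Ibsp and other cells in PF, at 812 and 844 CPM. It was lower in Ibsp cells of COR, at 406 against 1076 CPM, and of GP, at 62 against 524 CPM.

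Cells with Tnmd, a membrane protein gene of tendon and ligament, held more. Of the 10 genes, 6 were at least 2-fold higher in the 89 Tnmd cells, against 8.41% of 9436 genes. Igfbp3 differed most, at 794 against 71.7 CPM (log2 difference 3.45), and was present in 51.7% of Tnmd cells and 13.2% of the rest. Igf1 stood at 1844 against 544 CPM, Igf2 at 1522 against 616, Igfbp4 at 1277 against 447, Igfbp6 at 158 against 50.6 and Igfbp7 at 574 against 196. In PF, COR and GP each of these was higher in Tnmd cells, except Igfbp6 in COR, at 61.9 against 83.3 CPM. On SAG plate 1, with 7 Tnmd cells, Igf1 (399 against 629 CPM), Igfbp4 (526 against 940), Igfbp3 (0 against 17) and Igfbp6 (0 against 4.73) were lower in them, and 0 of 7 cells allows a share of up to 42.9%.

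Cells with Crabp2, a retinoic acid binding protein gene found in skull mesenchyme and meninges, also had 6 genes at least 2-fold higher, against 9.47% of 9484 genes, but not the same 6. Over all tissues Igfbp6 differed most, at 286 against 34.1 CPM (3.03), followed by Igfbp3 (2.32) and Igfbp2 (2.02), and Igf1, Igfbp4 and Igfbp7 were the others. Igfbp6 was higher in Crabp2 cells of PF (143 against 10.3 CPM), COR (281 against 44.5) and GP (338 against 67.4). Within COR, however, Igfbp2 differed more, at 1895 against 51.7 CPM (5.17, against 2.63 for Igfbp6). There 4 of 10 Crabp2 cells had an Igfbp2 read, and a single cell gave 41.4% of all COR reads of Igfbp2. In PF (517 against 322 CPM) and GP (64.8 against 34.4 CPM) Igfbp2 was within 2-fold. Of the 47 Crabp2 cells 29 were GP cells. With the mean over cells in place of summed reads, 4 genes met the fold.

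Other markers gave less or the opposite. Cells with Col2a1, the collagen of cartilage, had 0 of 10 genes at least 2-fold apart in either direction, while 13.7% of 9532 genes were lower and 10.5% higher. Acan, the cartilage proteoglycan on the same list, went with the members more: it was read in 65.7% of cells with Igf1 and 31.2% of those without, in 59.3 against 27.3% for Igfbp7, in 54.8 against 31.6% for Igf2r, and in 52.1% of cells with Igf2 but 0 of the 22 without, which allows up to 13.6%. Cells with Acta2, of contractile cells, had 3 genes lower (10.8% of 9477), namely Igf1, Igfbp3 and Igfbp6. The 19 cells with Mki67, a gene of dividing cells, had 6 lower (19.1% of 9574), of which Igfbp3 differed most, at 71 against 360 CPM. Of these cells 11 were COR cells, 4 were PF cells and 4 were GP cells, and the part of this mix was not tested. The 9 cells with Sox10, a gene of glia and neural crest, had 9 genes lower (30.6% of 9733). They held 0 reads of Igf2, which allows up to 0.753 CPM, against 987 CPM in the rest, where 94.2% of cells had a read. Igfbp7 was the exception in summed reads, at 415 against 330 CPM, but 4 of the 9 cells (44.4%) had a read of it, against 62.9% of the rest. In GP, which held 6 of the 9 cells and was the only tissue with enough of them to compare, Igfbp7 was not higher. Of the 22 cells without an Igf2 read after thinning, 40.9% had Sox10.

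**Figure D4:**
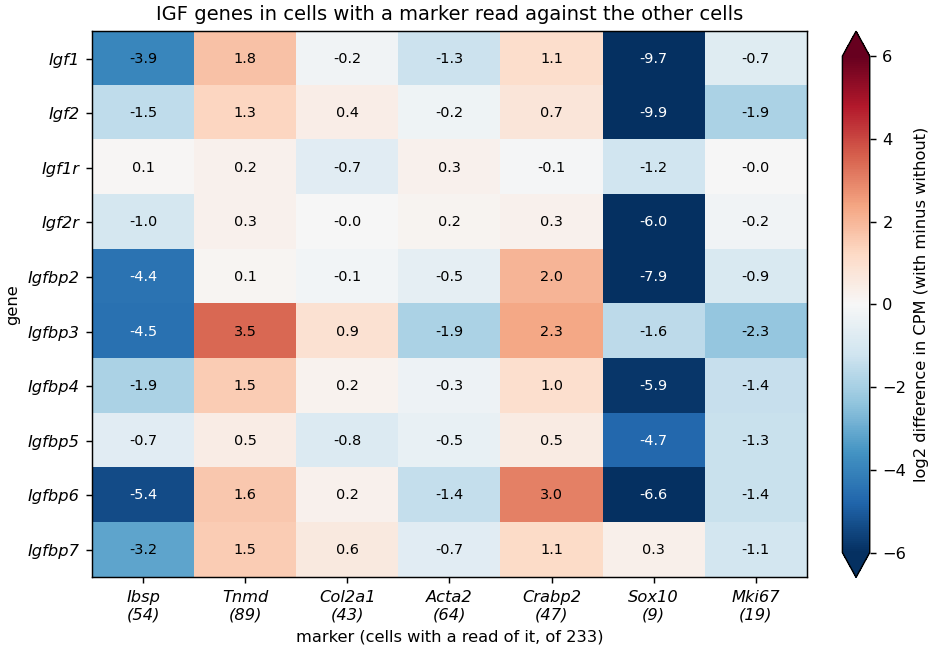
Log2 difference in CPM of each IGF gene (lines) between cells with and without a read of 1 marker (columns, number of cells in brackets), with colours capped at 6 in either direction. The Ibsp and Sox10 columns are mostly blue, the Tnmd and Crabp2 columns mostly red, and Col2a1 is pale; the pseudocount of 1 CPM sets the size of the values where a gene had 0 reads.

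The binding protein that led a cell went along with other genes of that cell. Of the 31 cells with no binding protein read, 67.7% had Ibsp and 0 had Igf1, which allows up to 9.68%, whereas 74.2% had Igf2. The 32 cells led by Igfbp5 came next, with Ibsp in 34.4%, Igf1 in 15.6% and Igf2 in 96.9%. In the 12 cells led by Igfbp3, 10 had Tnmd, 11 had Igf1 and 0 had Ibsp, which allows up to 25%. Of these 12 cells 11 were GP cells, and among all 67 thinned GP cells 39 had Tnmd and 41 had Igf1. Cells led by Igfbp4 (85) and Igfbp7 (50) had Igf1 in 64.7 and 54%. The cells led by Igfbp2 (13) had Fbln1, an extracellular matrix gene of fibroblasts, in 76.9% and Ibsp in 0, which allows up to 23.1%. Ibsp was thus most frequent in cells without a binding protein read and Tnmd in cells led by Igfbp3, but most Tnmd cells were led by the more common Igfbp4 (37 cells) and Igfbp7 (23), which also led 13 and 9 of the Ibsp cells. Leading and mere presence differed for Igfbp5: Ibsp was seen in 13.3% of cells with an Igfbp5 read and in 38.9% of those without. Other genes of the osteoblast list did not all follow Ibsp. Ifitm5 was also less frequent with Igfbp5 (15.4 against 25.6%), Sp7 was near even (39.2 against 41.1%) and Bglap was slightly more frequent (25.2 against 22.2%).

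The members were detected together to different degrees. Every one of the 108 cells with Igf1 also had Igf2, and 95.4% had Igfbp4, against 51.2% of cells without Igf1. Igfbp3 was seen in 53.7% of Igf1 cells and 5.6% of the rest. Pearson correlations of log2(CPM + 1), centred on the plate mean over 269 cells, ran from -0.08 (Igf1 with Igf1r) to 0.58 (Igf1 with Igfbp4), and Igf1r was near 0 with every other member (-0.08 to 0.13). Detection in shared libraries and depth bear on these values, which are given as descriptions.

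**Figure D5:**
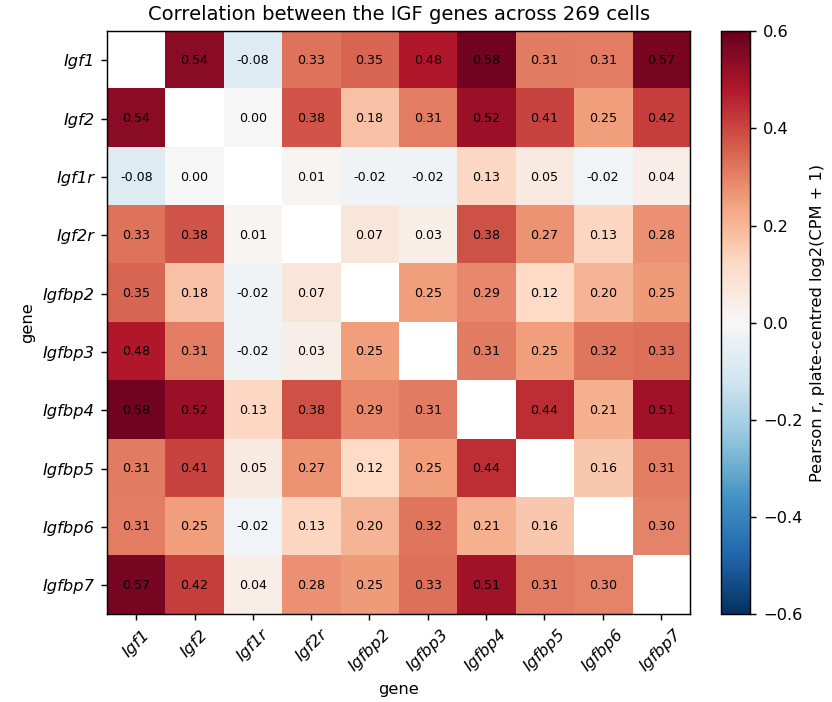
Pearson correlation between the IGF genes across 269 cells, on log2(CPM + 1) centred on each plate. Igf1, Igf2, Igfbp4 and Igfbp7 form the block of highest values, with 0.42 to 0.58 for each pair, and Igf1r is near 0 throughout.

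The genes most like each member were sought among 8151 genes with a read in at least 10% of these cells. Igf1 was most like Mfap4 (0.75) and Col14a1 (0.74), a microfibril and a collagen gene of fibrous tissue, and the interleukin 11 receptor gene Il11ra1 (0.68). Igf2 was most like H19 (0.65), the oppositely imprinted gene 72.624 kb away on chromosome 7, and Col12a1 (0.63). Igfbp4 was also most like H19 (0.62) and then Loxl1 (0.61), a collagen and elastin cross-linking enzyme. Igfbp3 was most like Mfap4 (0.56) and Apod (0.55), Igfbp7 like Il11ra1 (0.59) and Igf1 (0.57), and Igfbp5 like Igfbp4 (0.44). Igfbp6 was most like Agtr2 (0.45), the angiotensin II type 2 receptor, and Nov (0.42). Igfbp2 was most like Shisa3 (0.59), Atp1b1 (0.55) and Apoe (0.54), which held in PF (0.74, 0.75 and 0.80) but for the last pair not in GP (0.06 and 0.05). No gene reached 0.4 for Igf1r or Igf2r. For Igf1 the likeness to Mfap4 was 0.22 on SAG plate 1, against 0.74 to 0.83 in the other tissues.

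Of 26 other genes of the pathway, about as many differed between tissues other than SAG as among all genes. PF and COR gave 2 of 17 genes with at least 10 CPM (11.8% of all genes), namely Socs2, a suppressor of growth hormone signalling, at 104 against 43.7 CPM, and Stc2, a stanniocalcin that inhibits the protease PAPP-A, at 6.17 against 19 CPM, where a single cell gave 75.9% of the PF reads. PF and GP gave 3 of 18 (16.4% of all genes), each higher in GP: Pappa, the protease that cleaves IGFBP4, at 32.2 against 2.15 CPM, with all PF reads in a single cell, its relative Pappa2 at 63.3 against 5.12 CPM, and the signalling subunit gene Pik3r1 at 86 against 38.9 CPM. COR and GP gave 3 of 19 (13.4%), with Pappa2 and Pik3r1 again higher in GP and Stc2 higher in COR, at 19 against 0.808 CPM. Igfbp1, which lies 3.539 kb from Igfbp3 on chromosome 11, had 0 reads in all 4 tissues.

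For the comparisons with SAG the genes that differed changed in part with plate 2. PF and SAG gave 5 of 21 pathway genes (30.1% of all genes) and SAG and COR 6 of 22 (32.4%), and among them the insulin receptor substrate gene Irs2 stood at 164 CPM in SAG against 0.231 in PF but at 2.33 CPM on SAG plate 1. Without SAG plate 2, 5 of 19 (33.3% of all genes) and 7 of 20 (31.9%) differed. Akt2, a kinase gene of the pathway, was higher on SAG plate 1, at 251 CPM, than in PF (95.8 CPM) and COR (107 CPM), and so was Htra1, a secreted protease, at 2229 CPM against 966 and 675 CPM. SAG and GP gave 6 of 21 (31.6%), or 7 of 20 (34%) without SAG plate 2, where Htra1 was again higher in SAG, against 782 CPM in GP.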

How the data were processed

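The authors deposited raw read counts per gene and cell in 8 tables, 1 for each plate. The submitters' notes name STAR 2.5.3a, HTSeq, Seurat 2.3.0, R 3.4.4 and mm9; no source used here gave the annotation or whether counting was by strand. Reads carry no molecular identifiers. All 360 columns were matched to cells by title, 0 were left out, and no 2 cells had identical counts. Single cells were sorted into wells, and no doublet caller was run. Cells with under 500 genes or 10000 reads were dropped. Levels were compared as log2((CPM + 1)/(CPM + 1)), which understates low genes, and backgrounds were taken over genes of at least 10 CPM. Intervals are exact (Clopper-Pearson) at 95%, and 3 counts set the limit for a count of 0; both cover counting error only. Levels between genes are per kilobase of GENCODE vM1 exons (mm9). Named genes were all members, the pathway genes that differed, the likest genes (r of at least 0.4; 5 at most per member) and markers from lists. The members and lists were chosen with earlier results of these data known, and the markers Ibsp, Tnmd, Col2a1, Acta2, Crabp2, Sox10 and Mki67 were singled out after values had been seen. Cnmd, on the cartilage list, was not in the tables. Scripts used Python 3.11.15 and, for TMM factors in an alternative, edgeR 4.0.16 in R 4.3.3, and were tested on simulated data.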

Additional observations from a re-analysis of the deposited data

How the results depend on the processing

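No paired analysis was possible because each tissue was 1 sample, no test was made and plate numbers do not pair tissues. Of the alternatives tried on the counts of genes and on the marker comparisons, 65 gave a count within 1.5 times that reported and 4 did not. With a 1.5-fold threshold PF and COR differed in 3 genes (Igf2, Igf2r and Igfbp4) instead of 0. With the stricter filter of 1500 genes and 50000 reads, which left 0 cells of SAG plate 2, PF and SAG differed in 3 genes. SAG and GP differed in 4 genes with Rn45s counted in the totals and in 5 with the mean over cells. Igf2r changed direction between PF and SAG, to 0.32 on the log2 scale, with Rn45s counted. With Rn45s counted SAG and COR lost Igf2 and gained Igf1 and Igf2r. Without SAG plate 2, PF and SAG lost Igf2r and Igfbp5, SAG and COR lost Igf2 and Igfbp5, and both gained Igfbp7. Without the SAG cell described as PF, PF and SAG lost Igfbp5. With the mean over cells PF and GP lost Igfbp3 and COR and GP lost Igfbp2. Of the alternatives for single values, 547 moved by less than the spread between plates or the interval, and 38 moved by more. The alternatives for the marker comparisons were chosen after seeing the data. Depth limits the zeros: 0 reads allowed up to 0.29 CPM on SAG plate 2.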

Other observations

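The SAG plates differed from each other in 7 of the 10 IGF genes by at least 2-fold, beside 80.1% of all genes. The plates of GP differed in 5 (37.6% of all genes), those of COR in 5 (32.7%) and those of PF in 2 (42.5%). Igfbp4 was the same on both SAG plates, at 847 and 848 CPM.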
